A study of Rattus norvegicus with 12 samples.

Results

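Heterogeneous nuclear ribonucleoproteins (hnRNPs) are the proteins that coat newly made transcripts in the nucleus and steer their splicing, export, stability and translation. The genes described here are Hnrnpdl and 9 relatives, Hnrnpd, Hnrnpab, Hnrnpa1, Hnrnpa2b1, Hnrnpa3, Hnrnpc, Hnrnph1, Hnrnpk and Hnrnpu, of 18299 named genes on the array. They were chosen with earlier results of these data known, so calls given for them below are descriptions and not tests. Their probes were found by gene name, and every probe of each gene was kept apart because probes may read different transcript forms. The array carried 29 such probes of 45598 in all: 28 under the current gene names, and 1 for Hnrnpd under an older name that was matched through its RefSeq accession.

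The samples were 7 cultures of the N27 line, immortalised rat neural cells of dopaminergic type, in which Vdac1 had been removed with CRISPR (KO), and 5 wild-type cultures of the same line (WT). Vdac1 encodes voltage-dependent anion channel 1, a pore of the outer mitochondrial membrane. How many clones gave the KO cultures, and where the edit lies, are not given in the sources used here. Nor is it stated that the cultures were grown independently, so p-values measure only the spread between these samples. RNA of each culture was hybridised to 1 Agilent 1-colour array of 60-base probes.

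Values are log2 of the processed signal minus the 75th percentile of the same array, so 0 is the level of that percentile, and differences are KO minus WT. Values of different probes were not set against each other as levels, since probes differ in how strongly they bind. The 3 Vdac1 probes were lower by 1.15 to 1.23 on this scale in KO cultures, with KO and WT values apart at each (-1.15, -1.23 and -1.22). The 12 arrays lay on 3 slides, each with both genotypes, and the share of spots well above background ran from 42.3% to 53.8%. Of 9 dopaminergic neuron markers, Th and Aldh1a1 were well above background on all 12 arrays, while Slc6a3, Ddc, En1 and Foxa2 were so on none. Of 8 general neuron markers 0 were well above background on all 12 arrays, against 2 of 3 neural progenitor markers (Nes and Vim), 3 of 6 mesenchymal markers, 2 of 5 microglial markers (Cd68 and Cx3cr1), 0 of 5 astrocyte, 0 of 5 oligodendrocyte and 0 of 4 endothelial markers. In a bulk culture, fewer cells of a kind and less RNA per cell cannot be told apart.

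Most hnRNPs carry RNA-recognition domains or KH domains and bind a great many nascent transcripts, often with overlapping targets. Hnrnpd, also known as AUF1, and its close relatives Hnrnpdl and Hnrnpab form one branch, known for binding AU-rich elements as well as for nuclear roles, and the A-type proteins form another, known as splicing repressors. In human cells, several hnRNP proteins, HNRNPDL among them, are known to limit their own transcripts by switching the splicing of the transcript's own pre-mRNA.

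The probes on which the description turns are printed here in the 5′ to 3′ direction. Both Hnrnpdl probes lie on the plus strand of chromosome 14 (rn4 coordinates, per the file headers): the upstream probe at chr14:10862779-10862838, base 719 of its RefSeq transcript, and the downstream probe at chr14:10866181-10866240, base 3677 of a predicted RefSeq transcript, its start 3402 bases beyond the start of the upstream one. The Hnrnpd probe begins 69525 bases beyond the end of the upstream Hnrnpdl probe, on the same strand, and its 60 bases span chr14:10932363-10932963, a stretch of 601 bases, so it bridges a gap in the genome. The downstream Hnrnpa3 probe lies at chr3:58360834-58360893 on the plus strand, base 5159 of its transcript. Only the first 30 bases of the Hnrnpdl probe at base 3677 and of the Hnrnpa3 probe at base 5159 are shown. The gene part that each probe lies in (exon, intron or untranslated region) was not looked up, since no annotation of the rn4 build was used here.
Hnrnpdl, base 719: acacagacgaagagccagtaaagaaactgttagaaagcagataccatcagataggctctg
Hnrnpdl, base 3677: tagaagggagatcatttcacattgttagta
Hnrnpd, base 996: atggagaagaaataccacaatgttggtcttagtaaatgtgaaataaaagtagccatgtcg
Hnrnpa3, base 5159: gacagcagaggtggtctgtaattcaattgt
Neither Hnrnpdl probe, nor the Hnrnpd probe or the Hnrnpa3 probe at base 5159, shared a run of 18 or more bases with any probe of another gene on the array, on either strand.

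Hnrnpdl gave the clearest separation of the genotypes. At base 3677, its values in KO cultures were -0.23 at the lowest, -0.02 at the median and 0.11 at the highest, against 0.71, 0.92, 0.71, 0.98 and 0.70 in WT 3, WT 5, WT 6, WT 7 and WT 8. Every KO culture was below every WT culture, with a gap of 0.59 between the highest KO and the lowest WT value. The means were -0.04 ± 0.13 (SD, n = 7) in KO and 0.80 ± 0.13 (SD, n = 5) in WT cultures, a difference of -0.84 with a standard error of 0.12, which is 1.79-fold lower in KO.

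The upstream Hnrnpdl probe was also lower on average in KO cultures, but its groups overlapped. At base 719 the KO values ran from -1.59 through a median of -1.15 to -0.75, against -1.24, -0.87, -0.26, -0.60 and -0.77 in WT 3, WT 5, WT 6, WT 7 and WT 8. WT 3 lay below 5 of the 7 KO cultures, and KO 5 lay above WT 3, WT 5 and WT 8. The difference was -0.39 with a standard error of 0.19. Taking the downstream minus the upstream value within each array, the 7 KO arrays ran from 0.73 to 1.64 and the 5 WT arrays from 0.97 to 1.94. These ranges overlapped too, so the 2 probes did not separate the genotypes by their ratio, although the mean ratio was 0.46 smaller in KO on the log2 scale (-0.46).

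**Figure D1:**
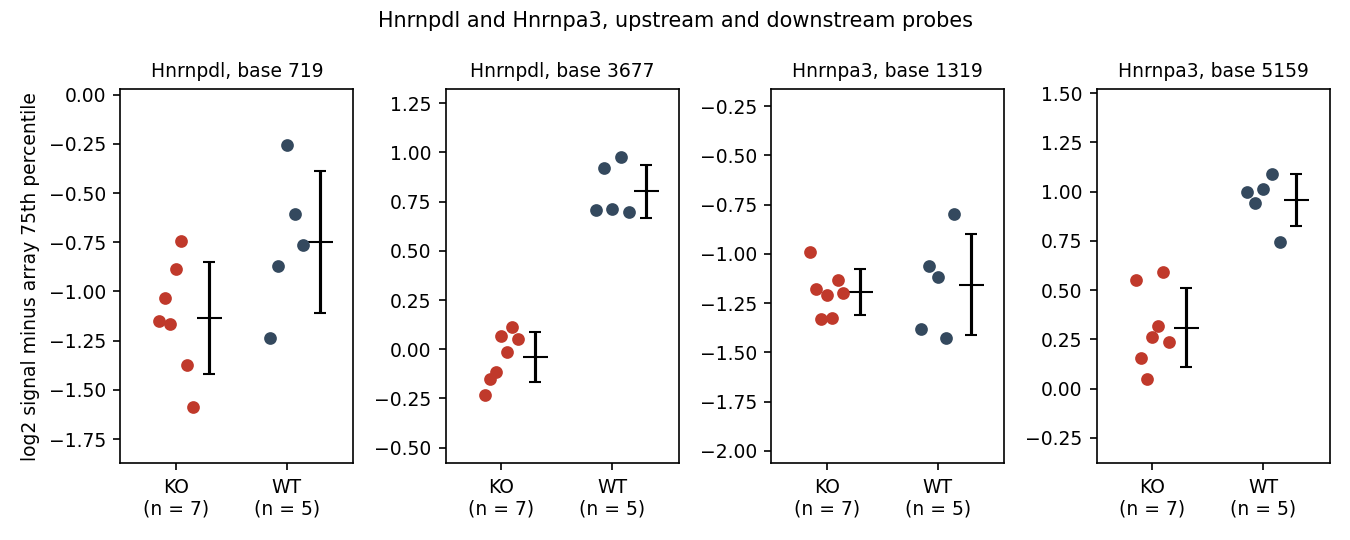
Log2 signal minus the array's 75th percentile at 2 probes each of Hnrnpdl and Hnrnpa3, in KO (red, n = 7) and WT (dark, n = 5) cultures. Each dot is 1 array, dots within a group are in order of sample number, the bars beside them are the mean and SD, and each panel spans the same number of log2 units. The groups are apart at Hnrnpdl base 3677 and Hnrnpa3 base 5159 and overlap at the upstream probes.

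The lower Hnrnpdl value at base 3677 was present on each slide. The KO minus WT difference was -0.62 within slide 1 (2 KO and 2 WT arrays), -1.09 within slide 2 (3 KO arrays and 1 WT array, the lone WT array being assumed to vary like the others) and -0.82 within slide 3 (2 KO and 2 WT arrays). Leaving out each array in turn gave -0.87 to -0.80, and the probe stayed past the threshold (Benjamini-Hochberg adjusted p under 0.05 in limma across all probes) in 12 of 12 such fits. Because this probe was picked out for its difference, these calls describe it and do not test it. An index of RNA quality, the mean of upstream minus downstream values over 531 other transcripts with probes at least 500 bases apart, ran from -0.07 to 0.09 over KO and from -0.08 to 0.03 over WT cultures. With this index in the fit the difference was -0.80 and no longer passed the threshold.

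Hnrnpd, the neighbouring gene in the RefSeq order on chromosome 14, showed no such separation. Its probe had KO values from -0.44 through a median of -0.14 to 0.18, against -0.14, -0.20, -0.23, -0.54 and -0.21 in WT 3, WT 5, WT 6, WT 7 and WT 8. The groups overlapped between -0.44, the lowest KO value, and -0.14, the highest WT value, and the difference was 0.12 with a standard error of 0.15. Enoph1, an enzyme of methionine salvage and the nearest protein-coding gene on the other side of Hnrnpdl, averaged -0.39 ± 0.36 in KO and -0.37 ± 0.21 in WT cultures, a difference of -0.02.

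Hnrnpab, the remaining gene of the D branch, binds AU-rich and transport elements in mRNA and is known in neurons for mRNA transport. Its 2 probes, each printed 10 times on the array, differed by 0.01 (SE 0.12) at base 1129 and 0.07 (SE 0.11) at base 1520. Under quantile normalization the sign turned at both, to -0.11 and -0.15, and likewise in the deposited value table, to -0.11 and -0.10. At base 1129 the values ran from 2.98 to 3.42 in KO and from 3.07 to 3.42 in WT cultures, and at base 1520 from 4.26 to 4.52 in KO and from 4.19 to 4.53 in WT cultures. The WT range lay within the KO range at base 1129 and reached past it on both sides at base 1520. The probe at base 1129 shared a run of 56 bases, on the opposite strand, with a probe of Phykpl, so 2 transcripts may overlap here.

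Among the A-type genes, Hnrnpa3 carried the other probe whose groups did not overlap. At base 5159, KO values were 0.05 at the lowest, 0.26 at the median and 0.59 at the highest, against 1.00, 0.94, 1.01, 1.09 and 0.74 in WT 3, WT 5, WT 6, WT 7 and WT 8. All 7 KO cultures lay below all 5 WT cultures, with a gap of 0.15. The means were 0.31 ± 0.20 (SD, n = 7) in KO and 0.96 ± 0.13 (SD, n = 5) in WT cultures, a difference of -0.65 with a standard error of 0.13, which is 1.57-fold lower in KO.

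The other Hnrnpa3 probes did not follow it. The probe at base 1319 of another transcript record, 1228 bases upstream in the genome, had KO values from -1.33 to -0.99, against -1.38, -1.06, -1.12, -1.43 and -0.80 in WT 3, WT 5, WT 6, WT 7 and WT 8, a difference of -0.04 (SE 0.13). The probes at bases 599, 1010 and 1020 were higher in KO on average, by 0.30 (SE 0.23), 0.16 (SE 0.19) and 0.19 (SE 0.21), with overlapping groups at each. At 1010 and 1020 the sign turned to -0.04 at both with the split of the sample numbering (1 to 4 and 5 to 8) as a block, and to -0.34 and -0.35 within slide 1. The probe at 599 shared runs of 32 and 20 bases with unnamed transcripts, so which copy it counts is uncertain. The probes at 1010 and 1020 share 50 bases without a mismatch and are not independent readings. A sixth probe, at base 558, was well above background on fewer than 5 arrays and was not tested. The downstream minus upstream value within each array, of base 5159 over base 1319, ran from 1.33 to 1.73 in KO and from 1.54 to 2.52 in WT cultures, an overlap made by WT 8 alone, at 1.54.

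The Hnrnpa3 result at base 5159 was less steady than that of Hnrnpdl. Within slides 1, 2 and 3 the difference was -0.46, -0.69 and -0.76. Leaving out 1 array gave -0.70 to -0.61, and the probe remained past the threshold only in the fits without KO 6 and without WT 3, so 10 of the 12 single-array omissions ended the call. With the RNA quality index in the fit the difference was -0.56, and it did not pass.

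**Figure D2:**
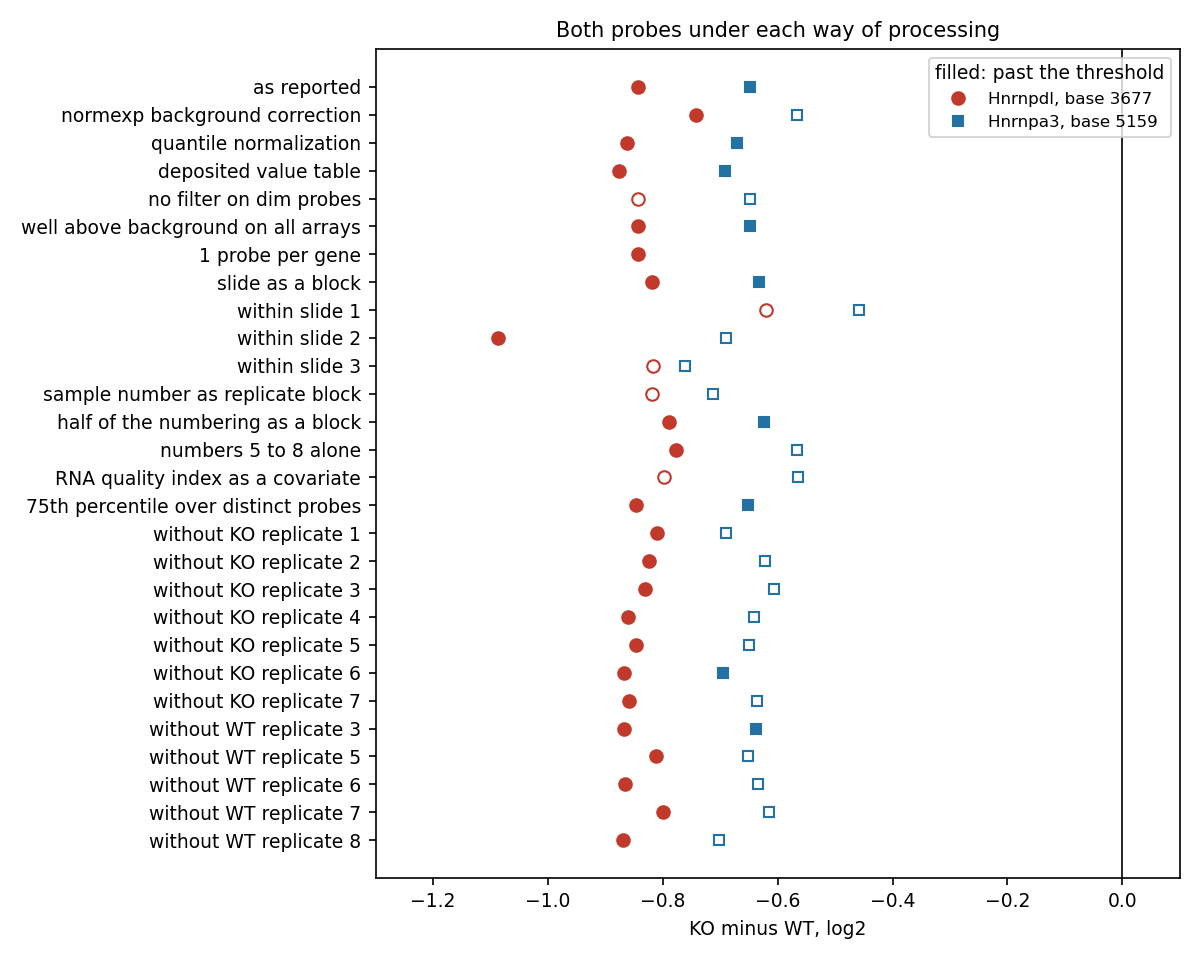
KO minus WT difference (log2) at Hnrnpdl base 3677 (red circles) and Hnrnpa3 base 5159 (blue squares) as reported and under each alternative, filled where the probe passed the threshold. Values stay below 0 throughout, from -1.09 to -0.62 for Hnrnpdl and from -0.76 to -0.46 for Hnrnpa3, with no square for Hnrnpa3 where 1 probe stood for a gene.

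Hnrnpa1, the most studied splicing repressor of this branch, was read by 5 probes with differences from -0.31 to 0.19. The KO minus WT values were -0.31 (SE 0.26) at base 328, -0.10 (SE 0.12) at 826, 0.19 (SE 0.27) at 835, -0.14 (SE 0.16) at 1027 and 0.01 (SE 0.14) at 1610. None of the 5 passed the threshold and the groups overlapped at each. At base 328, leaving out 1 array gave -0.46 (without WT 7) to -0.08 (without WT 3). With numbers 5 to 8 alone it was 0.10. The probes at bases 826 and 835 are a case of near-identical sequences that the array lists under 1 transcript. They lie at chr7:142153225-142153284 and chr7:142153234-142153293 on the plus strand (rn4), so 51 bases overlap, yet the printed letters differ at 3 of them, shown in capitals.
Hnrnpa1, base 826: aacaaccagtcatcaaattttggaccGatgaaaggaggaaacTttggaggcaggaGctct
Hnrnpa1, base 835: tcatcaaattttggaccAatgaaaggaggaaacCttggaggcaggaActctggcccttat
Counted from 1 at the 5′ end of the probe at base 826, the substitutions towards the other probe are G27A, T43C and G56A. The 2 probes read differently across arrays. At base 826 the WT values were 1.52, 1.58, 1.77, 1.45 and 1.69 in WT 3, WT 5, WT 6, WT 7 and WT 8. At base 835 they were -0.27, -0.17, -0.23, -1.88 and -0.15 in the same cultures, so of these 2 probes WT 7 stood apart only at the second. Without WT 7 the difference at base 835 was -0.15. A copy-like transcript listed as similar to Hnrnpa1 shared 35 bases with the probe at base 328, and an unnamed transcript shared 27 bases with the probe at base 835 and 22 with that at base 826, so these 3 readings are uncertain as to which copy they count.

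Hnrnpa2b1, known for sorting RNAs into transport granules and exosomes, was read by a bright and a dim probe. At base 583 the KO values were 0.26 at the lowest, 0.58 at the median and 1.31 at the highest, against 0.19, 1.05, 1.27, 0.30 and 1.05 in WT 3, WT 5, WT 6, WT 7 and WT 8, a difference of -0.02 (SE 0.25). Within slides 1, 2 and 3 this difference was 0.63, -0.67 and 0.02, and with the split of the numbering as a block it was 0.26. The 42 bases that the probe at base 583 shares with an unnamed transcript also make its reading uncertain. The probe at base 1583, well above background on 4 of 7 KO and 5 of 5 WT arrays, differed by -0.90 (SE 0.43), the largest difference of the 29 probes in size but also the noisiest, and it did not pass. Under normexp background correction it was -0.34, with the split of the numbering as a block -0.32 and with numbers 5 to 8 alone -0.14. Within slide 1 it was 0.23, and within slide 2, where it passed, -1.85. Slide 2 held only KO 1, KO 2, KO 3 and WT 5. Over all 3 slides, the values of KO 1 to KO 4 were -5.53, -4.58, -5.22 and -4.79 and that of WT 3 was -4.33. These lay below all of KO 5 to KO 7 (-3.04, -3.40 and -3.45) and the other WT cultures (-3.27 to -2.97).

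KO cultures numbered 1 to 4 were also set against those numbered 5 to 7, although the labels do not say what the numbers stand for. KO 1 to KO 3 lay on slide 2, KO 4 and KO 5 on slide 3, and KO 6 and KO 7 on slide 1. Only slide 3 held KO arrays from both sides of the split, so numbering and slide are largely confounded here. Between KO 1 to KO 4 and KO 5 to KO 7 the values did not overlap at 11 of the 28 probes tested, 6 of them lower and 5 higher in KO 1 to KO 4. Over all probes the share was 36.8%, close to that of the members, so nothing particular to the members is read from it. Among the 11 were Hnrnpd (means of 0.03 in KO 1 to KO 4 and -0.39 in KO 5 to KO 7), Hnrnpa2b1 at base 583 (0.42 and 1.19), and Hnrnpa3 at base 1010 (2.02 and 1.42). At Hnrnpdl base 3677 the means were -0.11 and 0.05, with overlapping values, and at Hnrnpa3 base 5159 they were 0.26 and 0.38, also overlapping. With the numbering as a block, the differences at these 2 probes were -0.79 and -0.62, and both still passed. In that fit WT 3 was the only WT array numbered 1 to 4.

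The remaining hnRNPs are structurally mixed. Hnrnpc binds uridine tracts and packages nascent transcripts, Hnrnph1 binds guanine tracts in splicing, Hnrnpk is a KH-domain protein that binds cytosine tracts, and Hnrnpu is a large scaffold of chromatin and nuclear RNA. Hnrnpc differed by -0.13 (SE 0.17) at base 1160 and 0.09 (SE 0.10) at base 1569, and Hnrnph1 by -0.10 (SE 0.15), with overlapping groups at each. For Hnrnpu the differences were -0.25 (SE 0.17) at base 3003, -0.02 (SE 0.35) at base 5493 and 0.06 (SE 0.26) at base 6899. Of its probes the one at base 5493 was the dimmest, well above background on 11 arrays.

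Hnrnpk came nearest to a further separation. At base 2486 the KO values were 3.08 at the lowest, 3.20 at the median and 3.45 at the highest, against 3.45, 3.64, 3.54, 3.54 and 3.43 in WT 3, WT 5, WT 6, WT 7 and WT 8. KO 6 and WT 8 were the pair that overlapped. The difference was -0.25 (SE 0.12), which did not pass the threshold. The other Hnrnpk probes differed by 0.19 (SE 0.14) at base 1267, -0.03 (SE 0.15) at 1344, 0.09 (SE 0.16) at 1529 and -0.12 (SE 0.14) at 3059. Within slide 1, the value at base 2486 was -0.02, and within slide 2 it was -0.49. Under quantile normalization and in the deposited value table it was -0.39, and it did not pass in either.

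**Figure D3:**
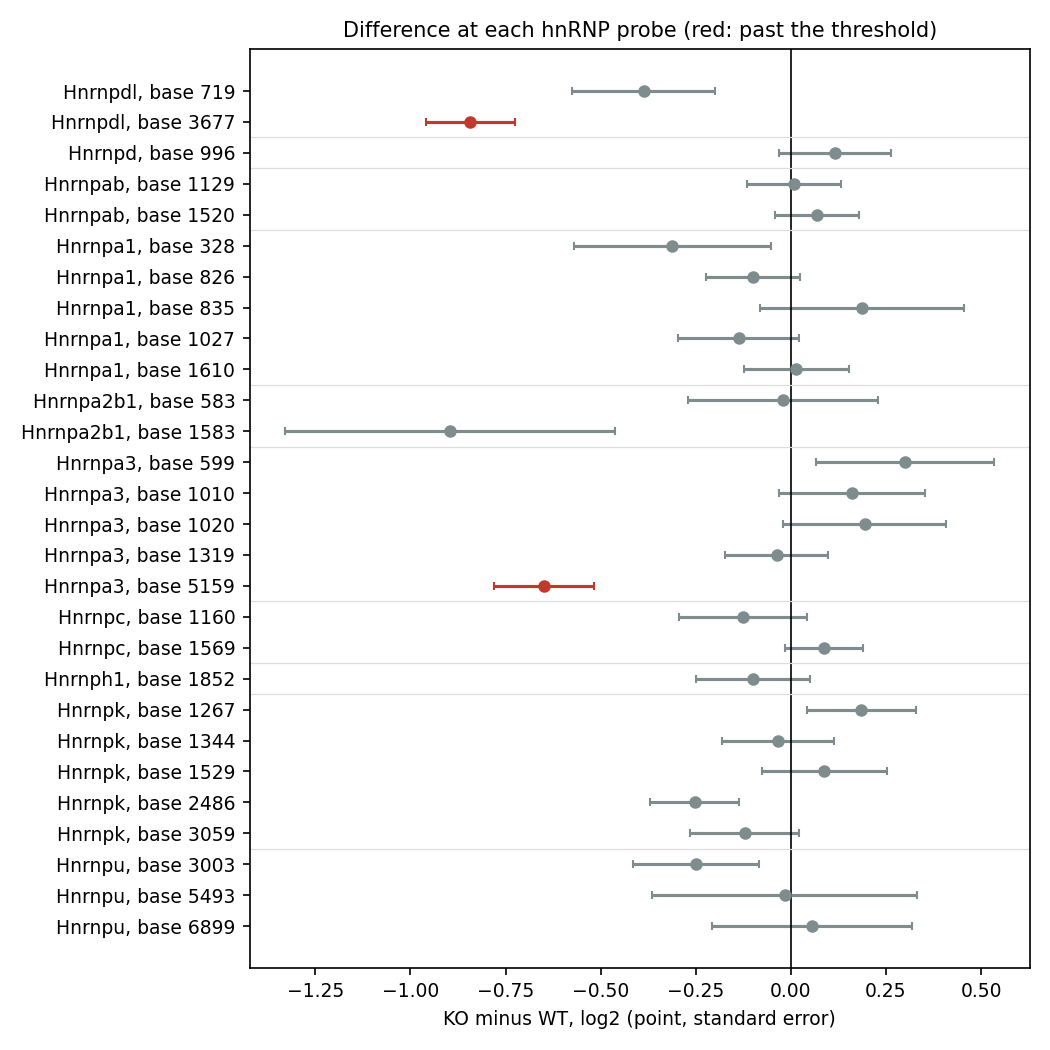
KO minus WT difference (log2, point) and its standard error (line) at each of the 28 probes tested, grouped by gene from the top. Red marks Hnrnpdl base 3677 (-0.84) and Hnrnpa3 base 5159 (-0.65), the 2 probes past the threshold; the others lie from -0.90 to 0.30 in grey.

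Counting all members, 28 of the 29 probes passed the filter on dim values and 26 were well above background on all 12 arrays. Of the 28, 2 passed the threshold lower in KO cultures, 0 passed it higher and 26 did not pass. At an unadjusted p under 0.05 in limma the count was 3 of the 28. Among all 17886 probes tested, 1646 higher and 1184 lower reached that unadjusted level. At the adjusted threshold, 1.15% of all probes passed in either direction, 0.442% lower (79 probes) and 0.704% higher (126). Under quantile normalization 63 passed lower and 66 higher, and with the deposited values 64 passed lower and 64 higher. The groups did not overlap at 2 of the 28 probes, both lower in KO, against 0.934% of all probes lower and 2.67% in either direction. Since the genes were chosen with this contrast known, nothing is read from these shares. The median difference was -0.03 over the 28 probes and 0.03 over all probes, with 20 of the 28 within 0.2 of 0.

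**Figure D4:**
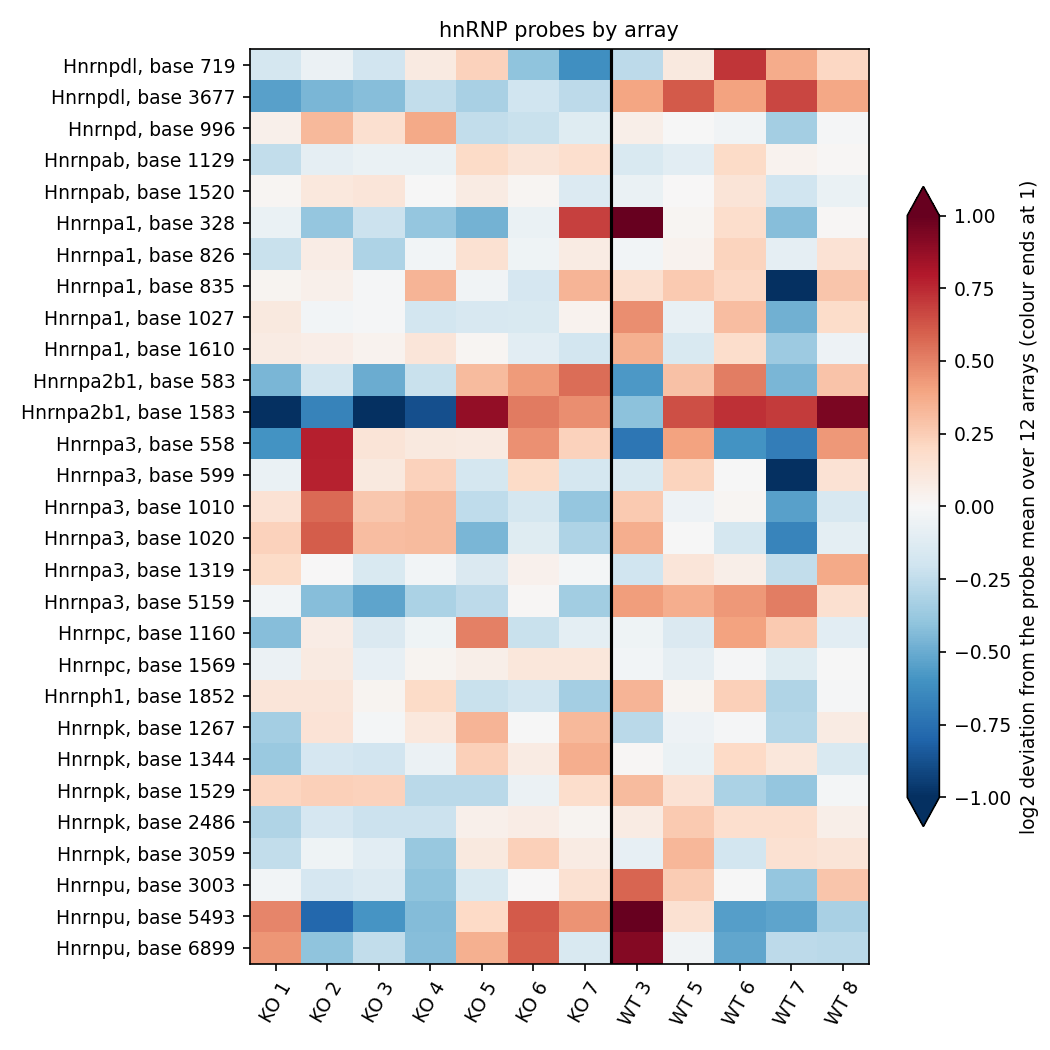
Deviation of each array from the probe's own mean over the 12 arrays (log2, colour), for all 29 probes in rows, with KO 1 to KO 7 left of the black line and WT 3 to WT 8 right of it. Hnrnpdl base 3677 and Hnrnpa3 base 5159 run from below to above their means at the line, Hnrnpa2b1 base 1583 is low in KO 1 to KO 4 and WT 3, and Hnrnpa1 base 835 is low in WT 7 alone.

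The probes of other genes that followed Hnrnpdl base 3677 most closely were sought among 9847 other probes of named genes that were well above background on all 12 arrays. Over the 12 arrays the 5 highest Pearson correlations belonged to Nupr1 (0.94), a stress-induced chromatin protein, Pycr1 (0.94), an enzyme of proline synthesis, Larp4b (0.92), an RNA-binding protein, Scyl2 (0.91), a clathrin-associated protein, and Lars1 (0.91), the leucyl-tRNA synthetase. All 5 were lower in KO cultures, with differences of -1.49, -1.15, -0.56, -0.70 and -0.39, so the 12 points share the genotype difference as well as any array effect. Of the other hnRNP probes, Hnrnpa3 base 5159 had r = 0.89, Hnrnpk base 2486 0.83 and Hnrnpdl base 719 0.51. Once each group's mean was taken off, the values were 0.24 for Hnrnpa3 base 5159, 0.68 for Hnrnpk base 2486 and -0.08 for Hnrnpdl base 719. The 5 probes closest in this second sense belonged to Zfp516 (0.90), Rprd1a (0.88), Ugt1a6 (0.88), Nr6a1 (0.87) and Slc25a42 (0.87), and none of the first 5 was among them.

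In all, 10 lists of related genes were read the same way, each gene by its tested probe with the highest mean, for 107 genes measured of 118 listed. The lists too were chosen with earlier results of these data known, so their counts and p-values are descriptions and not independent tests. Of the 107, 1 rose in KO cultures and 0 fell (4 and 10 at an unadjusted p under 0.05), and the median difference was -0.01. Over all 17886 probes tested, 0.704% passed higher and 0.442% lower, and 1646 higher and 1184 lower had an unadjusted p under 0.05 in limma. Among 23 other hnRNP family genes measured, Rbmx, a nuclear RNA-binding protein also called hnRNP G, averaged -0.12 ± 0.14 (SD, n = 7) in KO and -0.80 ± 0.25 (SD, n = 5) in WT cultures. Its difference was 0.68 with a standard error of 0.14 and an adjusted p of 0.0403 (limma, Benjamini-Hochberg), and whether the probe also reads related gene copies was not tested. The other 22 did not pass and the list's median was -0.04. In 10 of the 12 fits that left out 1 array, 0 of the 107 genes passed higher; the exceptions were those without KO 6 and without WT 3.

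None of the 84 genes measured on the other 9 lists passed in limma, where an unadjusted p under 0.05 gave 3 higher and 7 lower in KO cultures. Over all 17886 probes tested, 1.15% passed in either direction, and the same unadjusted level gave 1646 higher and 1184 lower. The 15 SR splicing factors had a median of -0.03, and Srsf6, which binds purine-rich splicing enhancers, had the smallest p with -0.53 (SE 0.18, limma adjusted p = 0.165). The 8 splicing factor kinases had a median of -0.12, led by Clk4 at -0.38 (SE 0.22, adjusted p = 0.424). The 24 core spliceosome genes had a median of 0.14, led by the RNA helicase Ddx39b at 0.39 (SE 0.15, adjusted p = 0.238). The 13 nonsense-mediated decay factors had a median of -0.05, led by Smg5 at -0.31 (SE 0.14, adjusted p = 0.309). These medians compare with 0.03 over all probes.

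The smaller lists gave the same count of 0. The 7 AU-rich element binding genes had a median of -0.03, with Elavl2, a neuronal Hu protein, at -0.75 (SE 0.23, limma adjusted p = 0.131). The 4 paraspeckle genes had a median of -0.16, with Pspc1, a paraspeckle core protein, at -0.72 (SE 0.21, adjusted p = 0.112). The 2 cold-inducible RNA-binding genes had a median of -0.16, with Cirbp at -0.57 (SE 0.19, adjusted p = 0.169) and Rbm3 at 0.24 (SE 0.16, adjusted p = 0.481). The 3 nuclear import receptors had a median of 0.07, with Tnpo1, which carries A-type hnRNPs into the nucleus, at 0.24 (SE 0.23, adjusted p = 0.649). The 8 RNA export genes had a median of 0.01, with the adaptor Alyref at -0.64 (SE 0.29, adjusted p = 0.303).

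**Figure D5:**
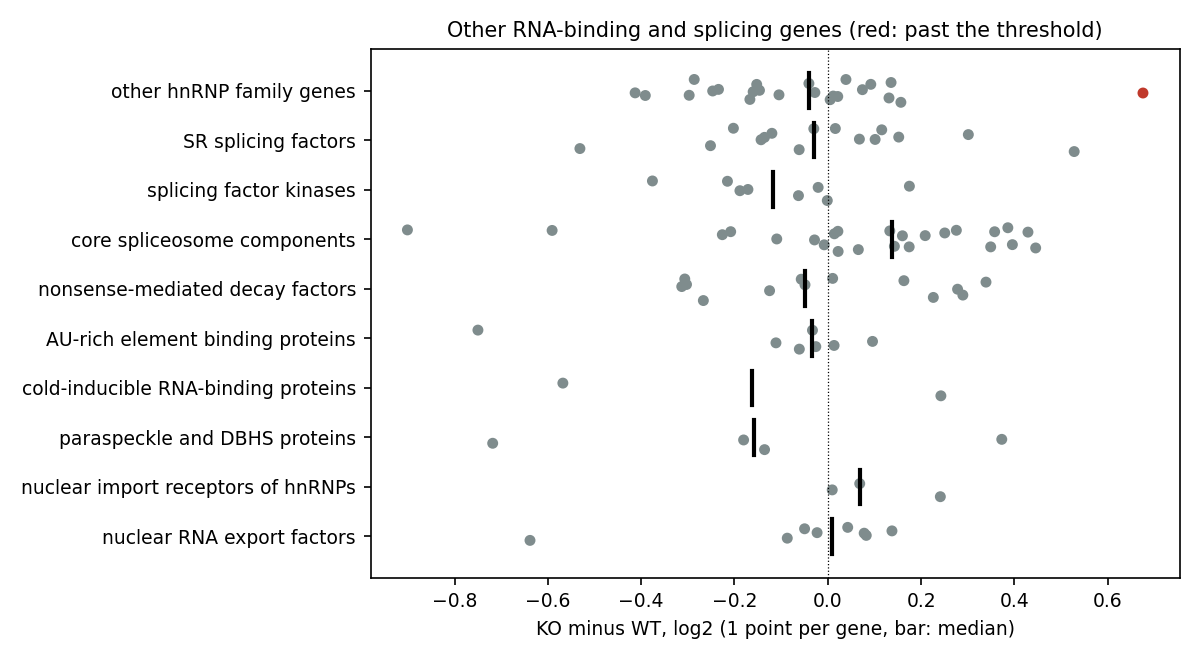
KO minus WT difference (log2) of the 107 genes on 10 lists, 1 point per gene at its own probe, with each list's median as a black bar. Rbmx, in red at 0.68, is the only point past the threshold, and list medians lie between -0.16 and 0.14.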

How the data were processed

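The labels' protocols give Trizol for the RNA and Cy3 for the dye. The submitters' processing notes name Agilent Feature Extraction 10.7 and the file headers 10.1.1.1. The scanner files that the authors deposited give each spot's intensity, not logged, with other columns that mark spots as well above background or as uneven. Their deposited table of log2 values has a median of 3.06 and looks quantile-normalized. Control, uneven and outlying spots were dropped and spots of a probe averaged as log2. Each array's 75th percentile was then subtracted, taken over all its spots that were not controls, with uneven and outlying ones included. Probes well above background on at least 5 of 12 arrays were fitted (limma 3.58.1, R 4.3.3, lmFit and eBayes, KO against WT, no covariate, Benjamini-Hochberg), after the fit was tested on simulated data. Genes were named through RefSeq tables by accession, symbol or synonym. The rule named all member probes, up to 4 called genes per list or else the one with the smallest p, and the 5 genes most like Hnrnpdl. Members and lists were chosen with earlier results of these data known.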

Additional observations from a re-analysis of the deposited data

Results flagged for a closer look

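In 5 of 58 groups of member values (29 probes in 2 genotypes), 1 array stood far from the others by Dixon's test, where chance alone would give about 1 in 20. WT 7 was the lowest of the WT cultures at 3 of them: -0.54 at Hnrnpd base 996, against -0.23 to -0.14 in the others, -1.88 at Hnrnpa1 base 835, against -0.27 to -0.15, and -2.62 at Hnrnpa3 base 599, against -1.69 to -1.31. WT 3 was lowest at Hnrnpa2b1 base 1583, at -4.33 against -3.27 to -2.97 in the other WT cultures. KO 7 was highest at Hnrnpa1 base 328, at 1.18 against 0.03 to 0.43 in the other KO cultures. None of the 5 is at the Hnrnpdl probes or at Hnrnpa3 base 5159.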

How the results depend on the processing

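At Hnrnpdl base 3677 the difference was below 0 under all 27 alternatives and passed the threshold in 22. It did not pass with no filter on dim probes (-0.84), within slide 1 (-0.62), within slide 3 (-0.82), with the sample number as a replicate block (-0.82) or with the RNA quality index as a covariate (-0.80). Without 1 array it ran from -0.87 to -0.80. At Hnrnpa3 base 5159 it was below 0 under all 26 alternatives and passed in 8. The count of member probes past the threshold, 2 as reported, was 1 under normexp background correction, with 1 probe per gene and with numbers 5 to 8 alone, 0 with no filter, within slides 1 and 3, with the replicate block and with the RNA quality index, and 1 to 2 without 1 array. Within slide 2 it was 2, with Hnrnpa2b1 base 1583 in place of Hnrnpa3 base 5159.

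Over all probes, 126 passed higher and 79 lower as reported. The counts higher and lower were 21 and 10 under normexp, 211 and 131 for probes well above background on all arrays, 284 and 188 with slide as a block, 528 and 385 with the split of the numbering as a block, 360 and 393 with numbers 5 to 8 alone, 1102 and 1061 within slide 2, and 11 and 5 with the RNA quality index. They were 66 and 63 under quantile normalization and 64 and 64 in the deposited value table. With no filter, within slides 1 and 3 and with the replicate block limma gave 0 and 0, where an unadjusted p under 0.05 gave 1318 and 1116, 1184 and 957, 518 and 446, and 1077 and 772. Without 1 array the counts ran from 13 to 442 higher and from 4 to 333 lower, lowest for higher without WT 5, lowest for lower without WT 8 and highest for both without WT 3. Of the 107 listed genes, 1 passed higher and 0 lower as reported. Higher calls numbered 0 under normexp, with no filter, within slides 1 and 3, with the replicate block, with numbers 5 to 8 alone and with the RNA quality index, and 8 within slide 2. Lower calls numbered 5 within slide 2 and 1 each with slide and with the split of the numbering as a block. Without 1 array they ran from 0 to 1 higher and from 0 to 2 lower. The percentile over distinct probes was chosen after seeing the data and changed none of these calls of members. Where fewer arrays or more probes entered a fit, its own construction bears on the count; otherwise the cause was not tested.

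Same-numbered KO and WT cultures did not deviate together in all 4 pairs (correlations of 0.52, -0.15, 0.04 and 0.04), so they were not treated as pairs. Only WT 3 was the best match of its own number. A split between numbers 1 to 4 and 5 to 8 is a different matter, and its block is given above. No spot was saturated, and dim probes (Hnrnpa2b1 base 1583, Hnrnpu base 5493, Hnrnpa3 base 558) limit what can be read.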
